A study of Saccharomyces cerevisiae with 16 samples.

Results

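The comparison described here is that of ribosome footprints and translation efficiency (TE) in ∆ntd yeast grown in urea against WT yeast grown in urea. Of the 16 libraries of the study, 4 Riboseq libraries carried the footprint comparison, and the 4 RNAseq libraries made from the same extracts were needed for TE. The 2 ∆ntd cultures carried tif3∆ntd-His6, an allele of the eIF4B gene that lacks the codons of the N-terminal domain (NTD), and the 2 WT cultures carried TIF3-His6. In both strains the chromosomal TIF3 gene was deleted (MATa tif3∆0), and the eIF4B allele was supplied under its native promoter on a plasmid that also carried HIS3, LEU2, URA3 and MET15, so that the cells were prototrophic. The sample labels name the control strain BY4741 and its genotype wild type. All 4 cultures grew in synthetic dropout (SD) medium with 3% urea, which denatures proteins at high concentration and also serves yeast as a nitrogen source. The other 8 libraries came from the same strains in SD without urea. They entered the main fits, where they helped to set the estimate of spread, and they are used below to show where the urea cultures differ.

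Yeast eIF4B, encoded by TIF3, is an RNA-binding initiation factor that works with the RNA helicase eIF4A to load mRNAs onto the small ribosomal subunit, and its NTD promotes binding to that subunit. TE is the footprint level of a gene divided by its RNA level, so it reports the density of ribosomes on its mRNA relative to other mRNAs of the same sample. The mRNA of Gcn4, the activator of amino acid synthesis genes, carries short upstream open reading frames that hold back translation of its coding region in unstarved cells. Cell surface and secreted proteins enter the endoplasmic reticulum (ER) as they are made, receive mannose chains and in some cases a glycosylphosphatidylinositol (GPI) anchor there, and pass through the Golgi to the plasma membrane or the cell wall.

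The start regions of 4 genes described below are given as the first 30 coding bases, 5′ to 3′, with the start codon in capitals, from the RefSeq copy of the R64 genome. TIF3 is shown because the ∆ntd allele removes coding sequence at this end, and FIG2 because the study fused this start to GFP in a reporter. GCN4 is shown as an example of a TE fall and ENO2 as an example of a TE rise, and neither represents all genes of its direction.
TIF3, chrXVI:869926-869955, minus strand: ATGgctccaccaaagaaaaccgtaaagaag
GCN4, chrV:139734-139763, minus strand: ATGtccgaatatcagccaagtttatttgct
FIG2, chrIII:267434-267463, plus strand: ATGaactcatttgcgtcattaggtctgata
ENO2, chrVIII:451327-451356, plus strand: ATGgctgtctctaaagtttacgctagatcc

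The Riboseq libraries held 10376087 and 7244958 footprints in the ∆ntd urea cultures and 4803862 and 3067506 in the WT urea cultures, and the RNAseq libraries held 2235178 and 1888481 reads in ∆ntd and 3401612 and 5169546 in WT. The MATa label matched the libraries, since the 7 a-specific genes summed to between 4619 and 11378 RNAseq reads per urea culture and the 4 alpha-specific genes to between 54 and 88, most of them on SAG1. The ∆ntd urea cultures differed from each other in Riboseq more than any other pair did. Their biological coefficient of variation was 0.241, against 0.041 to 0.056 in the other Riboseq groups and 0.033 to 0.057 in RNAseq. Among genes with at least 100 counts in both cultures, 165 of 3486 (4.73%) differed over 2-fold between the ∆ntd urea Riboseq libraries, and 0 genes did so in each of the 7 other groups. Of these 165 genes, 132 were higher in ∆ntd culture 2 and 33 in ∆ntd culture 1. TE of 63 of the 165 was past the test below, set beside 25.4% of all 5251 genes tested for TE. For this reason values are given for each culture.

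Counts were scaled by TMM within each assay, and levels are given as CPM, a count set against the scaled total of its library. A change was called at an adjusted p under 0.05 in edgeR's quasi-likelihood test, with p-values adjusted by the Benjamini-Hochberg method over all genes of the comparison. An exact permutation test of 2 cultures against 2 cannot give a p below 0.333, and the p-values rest on the spread between 2 cultures of each group. Because the scaling sets the typical gene to no change and no external RNA was used here, a uniform change in translation between the strains would not be seen, and every direction is relative to the median gene. With library totals in place of TMM, the median TE change of all genes moved by −0.59 on the log2 scale, to −0.55, and the calls became 215 higher and 2126 lower.

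Footprints differed in 1741 of 5286 genes tested (32.9%), with 945 higher in ∆ntd (17.9%) and 796 lower (15.1%). RNA differed in 2410 of 5486 genes (43.9%), with 1178 higher (21.5%) and 1232 lower (22.5%). TE differed in 1333 of 5251 genes (25.4%), with 805 higher in ∆ntd (15.3%) and 528 lower (10.1%). The call shares 1 estimate of spread among all groups and so draws on the quieter cultures. Some genes were also called both with the compared groups alone and with a variance estimated for each group in limma voom. These were 343 of the 805 rises and 151 of the 528 falls, or 6.53% and 2.88% of all 5251 genes tested. They are referred to below as called in all 3 fits. Without WT culture 1 the calls were 365 higher and 205 lower, without WT culture 2 they were 350 and 238, and without ∆ntd culture 1 they were 1287 and 1019. Most list counts given below moved the same way, with fewer calls without a WT culture and more without ∆ntd culture 1.

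Among called genes the ∆ntd cultures differed in the size of the TE change and not in its direction, which the call all but fixed. Each ∆ntd culture set alone against both WT cultures gave the same direction as the pair for all 805 rises and all 528 falls. Culture 1 alone called 642 of the rises and culture 2 alone called 759, with 604 called by each. Of the falls, 435 were called with culture 1, 480 with culture 2 and 394 with each. Fits with 1 ∆ntd urea culture had no replicate in that group and took their spread from the quieter groups. Their counts therefore do not show how a gene varies between ∆ntd cultures. In 1689 of the 5251 genes (32.2%) TE was higher in both ∆ntd cultures than in both WT cultures, and in 1452 (27.7%) it was lower in both. The direction of a called gene in each culture follows for the most part from the call, which used both cultures. All 805 rises and 527 of the 528 falls had both ∆ntd values beyond both WT values. Where a called gene is described below as separated between the strains, this adds no support to its call.

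**Figure D1:**
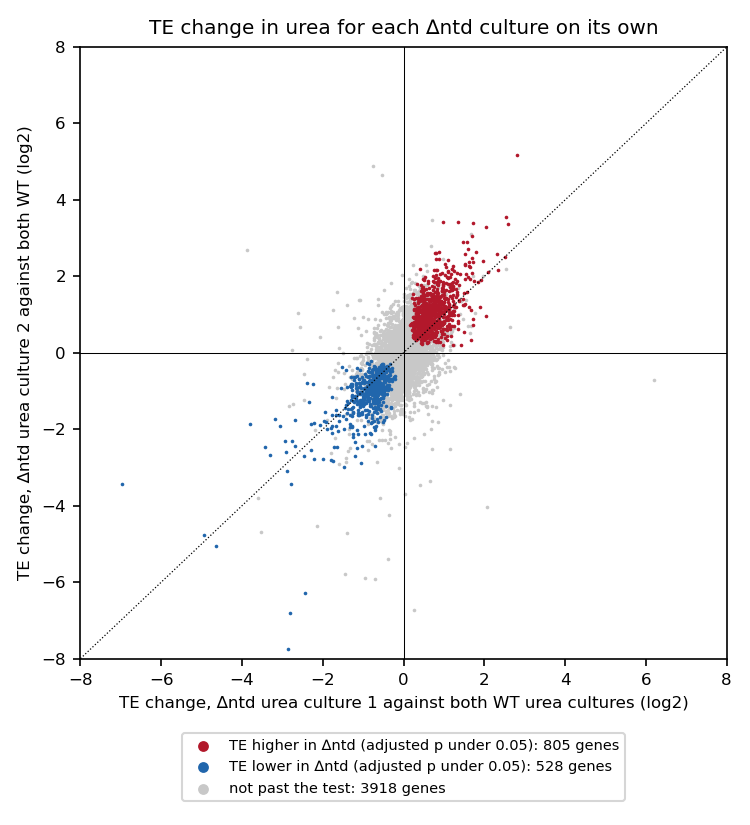
Each point is 1 of 5251 genes, with the log2 TE change of ∆ntd urea culture 1 against both WT urea cultures on the horizontal axis and that of ∆ntd urea culture 2 on the vertical axis. Red points are the 805 genes with TE called higher in ∆ntd, blue points the 528 called lower and gray points those not called; the red and blue points lie in opposite corners, with the red points spread further along the axis of culture 2.

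TIF3 itself had a TE of 1.46 and 2.06 in the ∆ntd cultures and 0.890 and 0.963 in the WT cultures. Both ∆ntd values were above both WT values, for a log2 change of 0.92 ± 0.18 (SE; edgeR adjusted p = 0.00213). Its RNA was at 2537 and 2536 CPM in ∆ntd and 3288 and 3261 CPM in WT, a log2 change of −0.37. The ∆ntd allele has no NTD codons on which a footprint or a read could map, so its counts come from a shorter coding region than those of WT, and the part this played was not tested. ACT1, which encodes actin, had a TE of 2.32 and 3.28 in ∆ntd and 1.77 and 1.75 in WT. Its log2 change was 0.68 ± 0.20 with an adjusted p of 0.0239 in edgeR, and it was called neither in all 3 fits nor without either WT culture.

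GCN4 translation fell in the mutant while its mRNA rose. GCN4 footprints were at 41.6 and 54.2 CPM in the ∆ntd cultures and at 175 and 183 CPM in the WT cultures. GCN4 RNA was at 942 and 904 CPM in ∆ntd and at 576 and 631 CPM in WT. The groups did not overlap in either assay, and they differed in opposite directions. TE was thus 0.0442 and 0.0599 in ∆ntd against 0.303 and 0.290 in WT, a log2 change of −2.53 ± 0.16 (edgeR adjusted p = 1.01e-06). Of 15 mRNAs with known upstream open reading frames, 4 had higher TE (26.7%) and 2 lower TE (13.3%), set beside 15.3% and 10.1% of all genes. Their median change was 0.05 against 0.04 for all genes. The other fall was CLN3, encoding a G1 cyclin, which was not called without ∆ntd culture 2. The rises were CPA1, RPC11, HOL1 and MBR1, of which none remained without WT culture 1. MBR1 had at most 3 footprints in each WT culture, and its TE was at least 5.32-fold higher in ∆ntd when WT was set to 3 footprints per library.

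FIG2, which encodes a cell wall adhesin made during mating, had the largest TE fall of all genes tested. Its libraries held 6 and 4 footprints in the ∆ntd cultures and 104 and 41 in the WT cultures. Footprint levels were 0.643 and 0.730 CPM in ∆ntd and 21.5 and 13.5 CPM in WT, while RNA was at 13.2 and 19.7 CPM in ∆ntd and 13.1 and 15.6 CPM in WT. The footprint groups were far apart and the RNA groups overlapped. TE fell by 4.86 ± 0.51 on the log2 scale (edgeR adjusted p = 3.61e-05), and FIG2 kept its call in the 13 of 14 alternatives of the processing that gave it a value, the exception being the one that tests a gene only where each library holds 10 counts or more.

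AGA1 and AGA2 encode the subunits of a-agglutinin, the adhesin of MATa cells. AGA1 footprints were at 17.6 and 16.6 CPM in ∆ntd and 123 and 126 CPM in WT, and RNA was at 9.05 and 17.3 CPM in ∆ntd and 18.2 and 18.7 CPM in WT. AGA1 TE was 1.94 and 0.963 in ∆ntd and 6.75 and 6.70 in WT, a log2 change of −2.33 ± 0.43 (edgeR adjusted p = 0.00143). AGA2 TE was 0.334 and 0.115 in ∆ntd and 0.842 and 0.973 in WT. Both genes were lower in each mutant culture than in either WT culture. AGA2 fell by 1.88 ± 0.43 on the log2 scale (edgeR adjusted p = 0.00587), but not without WT culture 2 (adjusted p = 0.066). SST2, which turns off the pheromone signal, fell by 0.97 ± 0.16, with TE of 0.225 and 0.199 in ∆ntd and 0.439 and 0.388 in WT.

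In the whole list of pheromone-induced and a-specific genes, TE of 5 of 18 members tested fell (27.8%, set beside 10.1% of all genes), of which 4 were called in all 3 fits, and KAR4 rose, though not without WT culture 1. The remaining fall was the a-factor exporter STE6, with a log2 change of −0.40 (edgeR adjusted p = 0.0498). Without ∆ntd culture 1 there were 8 falls, and without WT culture 2 there were 3. The median TE change was −0.51, set beside 0.04 for all genes, and was −0.41 with ∆ntd culture 1 and −1.01 with culture 2. The median footprint change was −1.29 and the median RNA change −0.41. Among the 14 members of the G protein and MAPK cascade that respond to pheromone, the G protein gamma subunit STE18 and the kinase KSS1 rose in TE, none fell, and neither rise remained without WT culture 1.

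Among the 12 largest TE falls, 6 were called in all 3 fits, namely FIG2, ARN1, GCN4, AGA1, BDS1 and TDA9. ARN1 encodes a transporter of iron-siderophore complexes. ARN1 TE was 0.0741 and 0.0628 in the ∆ntd cultures and 0.432 and 0.378 in the WT cultures, and fell by 2.58 ± 0.28 on the log2 scale (edgeR adjusted p = 5.36e-05). BDS1 encodes a sulfatase, and its TE was 0.0668 and 0.0895 in ∆ntd and 0.337 and 0.304 in WT. TDA9, which encodes a zinc finger protein, had a TE of 0.0449 and 0.0211 in ∆ntd and 0.148 and 0.155 in WT. BDS1 and TDA9 each fell by 2.09. No ∆ntd value of these 3 genes reached a WT value, which the choice of the 12 genes required. PHO89 encodes a phosphate transporter and BIO3 and BIO4 encode enzymes of biotin synthesis. These 3 genes were among the 12 but not called in all 3 fits, with log2 TE changes of −2.44, −2.06 and −2.19. PHO89 was not called without ∆ntd culture 1 or without WT culture 1, and BIO4 was not called without WT culture 1.

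**Figure D2:**
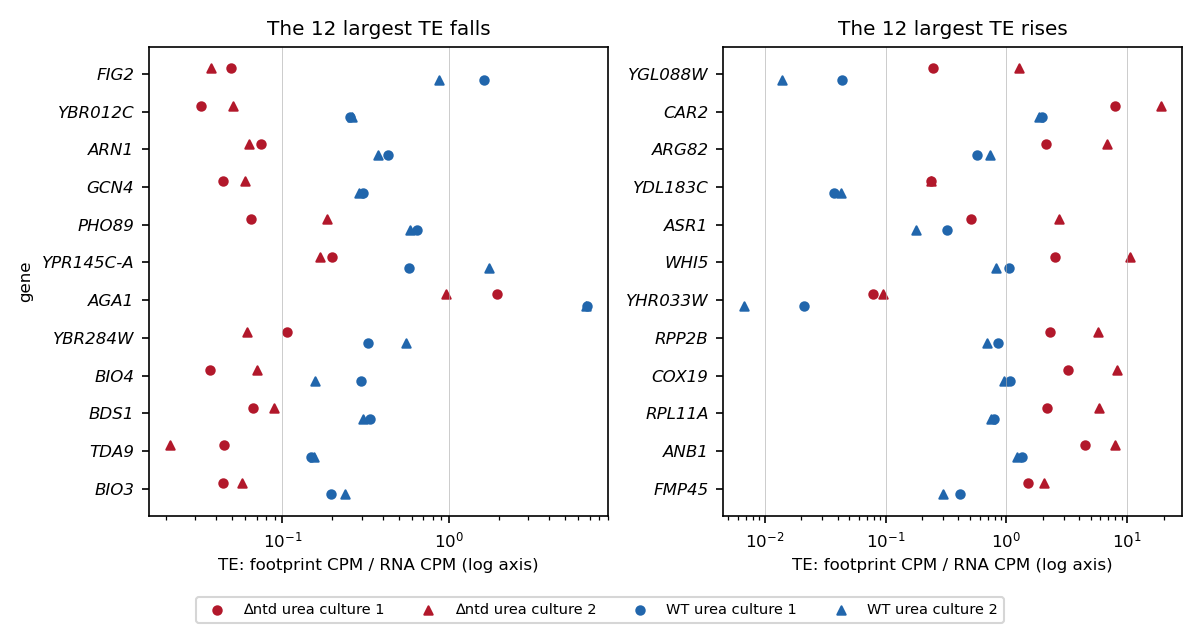
TE in each culture, as footprint CPM over RNA CPM on a log axis, for the 12 genes with the largest TE falls at the left and the 12 with the largest rises at the right. Circles mark culture 1 and triangles culture 2, with ∆ntd in red and WT in blue. FIG2 lies at 0.0489 and 0.0370 in ∆ntd and 1.63 and 0.868 in WT, and CAR2 at 7.97 and 19.1 in ∆ntd and 1.97 and 1.86 in WT.

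Lists of enzymes that build the sugar chains of secreted proteins had median TE changes below that of all genes, and some of them held more falls than the 10.1% of all genes. The Golgi mannosyltransferases of the KTR and KRE2 family, which extend mannose chains, had a median TE change of −0.51, and 3 of 9 fell (33.3%) with 0 rises, set beside 15.3% rises among all genes. KTR3 TE was 0.325 and 0.273 in the ∆ntd cultures and 0.554 and 0.540 in the WT cultures, a fall of 0.87 ± 0.13. KTR6 TE was 0.228 and 0.203 in ∆ntd and 0.353 and 0.347 in WT, a fall of 0.69 ± 0.14. KTR4, the remaining member to fall, was not called in all 3 fits. The 16 enzymes that start and elongate the outer mannan chain, OCH1 and the MNN genes with their partners, had 7 falls (43.8%), of which 4 were called in all 3 fits, and 0 rises, with a median of −0.18. Of these 16, 6 lay above a TE change of 0, and 4 rises were called without ∆ntd culture 1.

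MNN9 and MNN10 encode subunits of the mannan polymerase complexes, and MNN1 adds the terminal mannose. MNN9 footprints were at 42.4 and 30.5 CPM in ∆ntd and at 73.9 and 72.6 CPM in WT, and its RNA at 270 and 246 CPM in ∆ntd overlapped 224 and 253 CPM in WT. MNN9 TE was 0.157 and 0.124 in ∆ntd and 0.329 and 0.286 in WT. The footprints separated the strains and the RNA did not, and TE fell by 1.10 ± 0.18 (edgeR adjusted p = 7.27e-04). MNN10 TE was 0.157 and 0.156 in ∆ntd and 0.347 and 0.289 in WT, a fall of 1.03 ± 0.13. MNN1 TE was 0.283 and 0.264 in ∆ntd and 0.560 and 0.497 in WT, a fall of 0.95 ± 0.13.

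The ALG enzymes assemble the lipid-linked oligosaccharide that is transferred to asparagine in N-glycosylation. Of 18 tested, ALG1, ALG6 and ALG8 fell (16.7%, set beside 10.1% of all genes), all 3 in all 3 fits. DPM1, which makes the mannose donor, rose (5.56%, set beside 15.3% of all genes), though not without WT culture 1. ALG6 TE was 0.209 and 0.288 in the ∆ntd cultures and 0.515 and 0.524 in the WT cultures (log2 change −1.08 ± 0.17). ALG8 TE was 0.219 and 0.310 in ∆ntd and 0.595 and 0.537 in WT (−1.13 ± 0.19). ALG1 TE was 0.198 and 0.176 in ∆ntd and 0.406 and 0.379 in WT (−1.06 ± 0.19). For each of the 3 genes the ∆ntd values lay well below the WT values. The median of the list was −0.39, with −0.22 in ∆ntd culture 1 and −0.54 in culture 2, and without ∆ntd culture 1 it had 9 falls in place of 3.

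Of the 25 enzymes of GPI anchor synthesis and transfer, 8 fell in TE (32.0%, set beside 10.1% of all genes) and 1, GWT1, rose, with a median of −0.46. GWT1 was not called without ∆ntd culture 2. Without WT culture 1 there were 4 falls and without ∆ntd culture 1 there were 11. LAS21, which adds an ethanolamine phosphate to the anchor, had TE of 0.328 and 0.200 in ∆ntd and 0.618 and 0.629 in WT, a fall of 1.23 ± 0.21 (edgeR adjusted p = 8.34e-04). Of the 6 PMT O-mannosyltransferases, PMT3 and PMT4 fell (33.3%, set beside 10.1% of all genes), neither of them in all 3 fits nor without WT culture 1. Of the 9 oligosaccharyltransferase subunits OST3 fell (11.1%, near the share of all genes), though not without WT culture 2. The medians of these lists were −0.29 and −0.16.

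Falls did not outnumber rises in the lists of ER translocation, vesicle coats and the V-ATPase. Among 21 genes of ER translocation and signal peptide removal SRP54 rose and 0 fell, with a median of 0.04, the same as all genes, and SRP54 was not called without WT culture 1. The 24 ER folding and quality control genes held 5 rises (20.8%) and 7 falls (29.2%), set beside 15.3% and 10.1% of all genes. JEM1, a J-protein of the ER lumen, had TE of 0.345 and 0.278 in ∆ntd and 0.906 and 0.718 in WT, a fall of 1.36 ± 0.23. FPR2, a peptidyl-prolyl isomerase, had TE of 1.90 and 2.55 in ∆ntd and 0.908 and 0.973 in WT, a rise of 1.23 ± 0.19. JEM1 and FPR2 were each separated between the strains, in opposite directions. The 34 members of COPII and COPI vesicle coats and cargo receptors held 8 rises (23.5%) and 3 falls (8.82%). Without WT culture 1 the ER folding list held 2 rises and 4 falls and the COP list 0 falls, and without WT culture 2 the COP list held 4 rises. The V-ATPase, which acidifies the vacuole, had 9 rises among 18 subunits and assembly factors (50.0%, set beside 15.3% of all genes). It had 0 falls, set beside 10.1% of all genes, and a median of 0.38. Its rises numbered 3 without WT culture 1. VMA10 TE was 1.53 and 2.25 in ∆ntd and 0.857 and 0.793 in WT (1.20 ± 0.20), and VMA4 TE was 3.33 and 4.29 in ∆ntd and 1.86 and 1.94 in WT (1.01 ± 0.18).

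At the cell surface, genes of the wall moved both ways. FKS1 encodes the catalytic subunit of the glucan synthase that makes the main polymer of the wall. FKS1 footprints were at 527 and 572 CPM in the ∆ntd cultures and 1657 and 1480 CPM in the WT cultures, and FKS1 RNA was at 2495 and 2678 CPM in ∆ntd and 3302 and 3333 CPM in WT. Both assays separated the strains, with the wider gap in footprints. FKS1 TE was 0.211 and 0.214 in ∆ntd and 0.502 and 0.444 in WT, a log2 change of −1.15 ± 0.12 (edgeR adjusted p = 3.79e-05). CHS1, which encodes a chitin synthase used in wall repair, had TE of 0.128 and 0.0894 in ∆ntd and 0.335 and 0.371 in WT, and fell by 1.68 ± 0.17.

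Rises among wall genes included UTH1, with TE of 3.06 and 3.08 in ∆ntd and 1.48 and 1.16 in WT (1.25 ± 0.22), and the mannoprotein CWP1, with TE of 4.28 and 5.60 in ∆ntd and 2.26 and 2.18 in WT (1.19 ± 0.26). In the CWP1 case footprints were at 275 and 458 CPM in ∆ntd and 387 and 423 CPM in WT and overlapped, while RNA was at 64.1 and 81.8 CPM in ∆ntd and 172 and 194 CPM in WT, and CWP1 was not called without WT culture 2 (adjusted p = 0.054). In all, 12 of 47 wall genes rose (25.5%) and 7 fell (14.9%), set beside 15.3% and 10.1% of all genes, with a median of 0.10, and without WT culture 2 there were 2 rises, while without WT culture 1 there were 4 falls. Of 20 genes of the cell wall integrity pathway, which senses wall stress through Rho1 and a MAPK cascade, 5 fell and the sensor SLG1 and RHO1 rose. WSC2, a wall stress sensor, had TE of 0.180 and 0.192 in ∆ntd and 0.386 and 0.472 in WT, a fall of 1.19 ± 0.18. LRG1, which turns Rho1 off, had footprints at 8.89 and 8.58 CPM in ∆ntd and 21.5 and 21.4 CPM in WT with RNA that overlapped, and its TE fell by 1.39 ± 0.20. Without ∆ntd culture 2 there were 3 falls and 1 rise, and the falls of WSC2 and LRG1 held in each alternative tried.

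Transporters of the plasma membrane moved both ways. Among 24 amino acid and ammonium permeases the median TE change was −0.27, the median footprint change −0.81 and the median RNA change −0.52, but only 2 members fell in TE and 2 rose by the test, none of them in each setting with 1 WT culture left out. Among 33 ion pumps and drug exporters 9 fell (27.3%, set beside 10.1% of all genes) and 4 rose (12.1%, set beside 15.3%), against 2 falls and 1 rise without WT culture 1. ZRT2, a zinc importer, had TE of 0.150 and 0.166 in ∆ntd and 0.286 and 0.382 in WT (−1.06 ± 0.15), and TPO4, a polyamine exporter, had TE of 1.66 and 2.63 in ∆ntd and 0.852 and 0.838 in WT (1.32 ± 0.21). Of 14 hexose transporters and glucose sensors 8 were tested, with 3 rises (37.5%) and 1 fall (12.5%), set beside 15.3% and 10.1% of all genes. None of these calls held in all 3 fits. In sterol synthesis, ERG10, the first enzyme of the pathway, rose by 0.95 ± 0.15 and HMG2, an isozyme of the step that limits its rate, fell by 0.68 ± 0.13.

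TE of most ribosomal protein genes was higher in ∆ntd. TE rose for 57 of 81 60S protein genes and 42 of 57 40S protein genes, set beside 15.3% of all genes, and fell for 2 and 1. The median changes were 0.94 in both lists, set beside 0.04 for all genes, and they were 0.82 and 0.81 with ∆ntd culture 1 and 0.93 and 0.97 with culture 2. Of the rises, 44 and 32 were called in all 3 fits. The median footprint changes were 0.97 and 1.01, while the median RNA changes were 0.04 and 0.07. Footprints on cytosolic ribosomal protein genes made up 23.5% and 24.4% of all footprints in the ∆ntd cultures and 13.3% and 13.5% in the WT cultures, and RNA reads on them 18.1% and 17.5% in ∆ntd and 14.2% and 14.0% in WT.

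RPS9B, a small subunit protein, had footprints at 5839 and 7383 CPM in ∆ntd and 2083 and 2153 CPM in WT, with RNA at 1932 and 1859 CPM in ∆ntd and 2411 and 2207 CPM in WT. Its footprints were higher and its RNA lower in both mutant cultures. RPS9B TE was 3.02 and 3.97 in ∆ntd and 0.864 and 0.976 in WT, a rise of 1.93 ± 0.16 (edgeR adjusted p = 9.76e-06). The stalk proteins RPP1B and RPP2B showed how far the 2 mutant cultures could differ. RPP2B footprints were at 3662 and 10338 CPM in ∆ntd and 1388 and 1320 CPM in WT, and RPP1B footprints at 4029 and 7796 CPM in ∆ntd and 1498 and 1433 CPM in WT. Culture 2 was well above culture 1 for both genes, and culture 1 was above WT. RPP2B rose by 2.43 ± 0.43 (edgeR adjusted p = 0.00108) and RPP1B by 2.02 ± 0.30. RPL11A, with TE of 2.16 and 5.86 in ∆ntd and 0.796 and 0.747 in WT, rose by 2.34, but 67.5% of its coding sequence, read in windows of 28 bases, also occurs in another gene, and for RPS6A, with a rise of 1.81, this share was 81.1%. Counts of such paralog pairs are uncertain.

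Other genes of protein synthesis moved less uniformly. Of 14 elongation and termination factors 7 rose (50.0%, set beside 15.3% of all genes) and 0 fell, with a median of 0.38. EFB1, the exchange factor of eEF1A, had TE of 2.67 and 3.44 in ∆ntd and 1.03 and 1.10 in WT (1.51 ± 0.14, edgeR adjusted p = 1.60e-05). HYP2, which encodes eIF5A, had TE of 4.18 and 3.50 in ∆ntd and 1.81 and 1.69 in WT (1.13 ± 0.14). TEF4, an eEF1B gamma subunit, had footprints at 2119 and 3231 CPM in ∆ntd and 2055 and 2084 CPM in WT and RNA at 716 and 809 CPM in ∆ntd and 1585 and 1685 CPM in WT. TEF4 footprints were higher in both ∆ntd cultures by little in culture 1 and its RNA was lower in both, and its TE rose by 1.47 ± 0.21. Of 32 initiation factors 8 rose and 2 fell (6.25%), and 2 rises and 0 falls were called in all 3 fits. TIF3 was among the 8, and without WT culture 2 there were 2 rises.

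Of 21 aminoacyl-tRNA synthetase genes 10 rose in TE (47.6%, set beside 15.3% of all genes), with a median of 0.42. However, all 21 fell in RNA, with a median of −0.56, and the median footprint change was −0.14. The rises numbered 1 without WT culture 1. ARC1, a cofactor of synthetases, had TE of 2.62 and 4.28 in ∆ntd and 1.61 and 1.61 in WT (1.09 ± 0.22). The 131 ribosome biogenesis factors went against the ribosomal proteins, with 24 falls (18.3%) and 7 rises (5.34%), set beside 10.1% and 15.3% of all genes, and a median of −0.18. Their RNA rose in 55 and fell in 7, with a median of 0.22, and their median footprint change was 0.01. The falls numbered 5 without WT culture 2, 41 without ∆ntd culture 1, and 6 in all 3 fits. URB1, needed for early 60S assembly, had TE of 0.262 and 0.211 in ∆ntd and 0.515 and 0.426 in WT (−0.99 ± 0.16). GAR1 and NOP1, proteins of the small nucleolar particles that modify rRNA, rose by 1.12 ± 0.20 and 1.36 ± 0.26. Of 75 mitochondrial ribosomal proteins 7 rose (9.33%) and 4 fell (5.33%), with a median of −0.10, and 1 in each direction was called in all 3 fits. Without WT culture 1 there were 0 rises. The fall that held was NAM9, with TE of 0.224 and 0.242 in ∆ntd and 0.504 and 0.559 in WT.

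Glycolysis and fermentation enzymes had higher TE and lower RNA in ∆ntd, with footprints near those of WT for the typical member. Of 25 genes 18 rose, 16 of them in all 3 fits (72.0% rises, set beside 15.3% of all genes), and ADH4 fell, though not without ∆ntd culture 1, with a median TE change of 1.03. The median RNA change was −1.08, with 23 of 25 genes lower and 0 higher, and the median footprint change was −0.06, with 3 genes higher and 8 lower. ENO2, an enolase, had RNA at 4594 and 5103 CPM in the ∆ntd cultures and 20884 and 20645 CPM in the WT cultures, while ENO2 footprints were at 19021 and 21107 CPM in ∆ntd and 19608 and 20001 CPM in WT. The RNA groups were far apart and the footprint groups overlapped. ENO2 TE was 4.14 and 4.14 in ∆ntd and 0.939 and 0.969 in WT, a rise of 2.12 ± 0.14 (edgeR adjusted p = 1.13e-06). ENO1, the other enolase, rose by 1.82 ± 0.17, and for both enolases 42.4% of the sequence windows also occur in another gene. PDC1, the main pyruvate decarboxylase, had TE of 6.27 and 6.27 in ∆ntd and 1.93 and 1.54 in WT (1.87 ± 0.22). GLK1, glucokinase, had TE of 3.74 and 6.92 in ∆ntd and 1.57 and 1.56 in WT (1.80 ± 0.32).

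Cytosolic chaperones followed the same course. Of 24 genes 16 rose in TE (66.7%, set beside 15.3% of all genes) and 0 fell, with medians of 0.56 for TE, −0.75 for RNA and 0.07 for footprints, and 8 rises were left without WT culture 2. SSA2, an Hsp70, had TE of 2.81 and 4.08 in ∆ntd and 1.13 and 1.14 in WT (1.61 ± 0.21), and 65.0% of its windows are shared. SSB1, an Hsp70 that binds nascent chains, had TE of 1.34 and 1.36 in ∆ntd and 0.558 and 0.551 in WT (1.28 ± 0.12), with 60.6% shared. ZUO1, the J-protein that works with Ssb on the ribosome, had TE of 2.75 and 4.89 in ∆ntd and 1.27 and 1.17 in WT (1.67 ± 0.30). No ∆ntd value of these genes came down to a WT value. Proteasome subunits had a median TE change of 0.33, with 9 rises (27.3%) and 2 falls in 33, beside a median RNA change of −0.68 with 28 of 33 lower, and a median footprint change of −0.42. PRE6, a core particle subunit, had TE of 1.39 and 2.26 in ∆ntd and 0.780 and 0.821 in WT (1.15 ± 0.19). Their rises numbered 4 without WT culture 1 and their falls 0 without WT culture 2. CCT6, of the chaperonin that folds actin and tubulin, rose by 1.22 ± 0.22 and was the only one of the 4 risen CCT subunits, of 8, left in all 3 fits.

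Among enzymes of amino acid synthesis, many of them activated in transcription by Gcn4, the share of TE rises was above the 15.3% of all genes, and both RNA and footprints were more often lower than higher. The sulfate assimilation and methionine list held 12 rises and 1 fall among 25 (48.0% rises), with medians of 0.41 for TE, −0.73 for RNA and −0.28 for footprints, which were higher in 2 members and lower in 12. HOM2 TE was 1.53 and 3.16 in ∆ntd and 0.680 and 0.745 in WT (1.71 ± 0.29), and MET2 TE was 1.26 and 1.57 in ∆ntd and 0.603 and 0.686 in WT (1.15 ± 0.20). The branched-chain and aromatic list held 9 rises and 1 fall among 24 (37.5% rises), with a median footprint change of −0.16, 3 members higher and 9 lower. In it ILV6 had TE of 2.25 and 2.14 in ∆ntd and 1.04 and 0.984 in WT (1.12 ± 0.11). The histidine, arginine and lysine list held 8 rises and 0 falls among 22 (36.4% rises), with medians of 0.20 for TE, −0.65 for RNA and −0.31 for footprints, which were higher in 2 members and lower in 10. The 3 lists had 6, 3 and 5 rises without WT culture 1. Each of these named enzymes was higher in both ∆ntd cultures, although HOM2 differed widely between the mutant cultures.

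**Figure D3:**
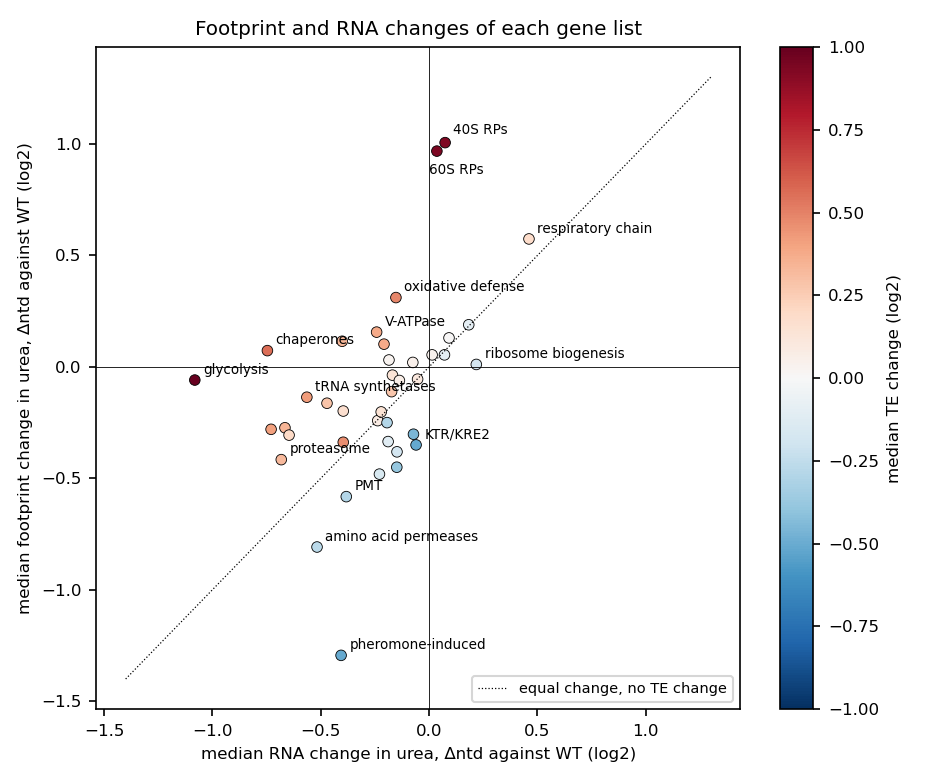
Each point is 1 of the 40 gene lists, with its median RNA change in urea (∆ntd against WT, log2) on the horizontal axis, its median footprint change on the vertical axis and its median TE change as color; equal changes lie on the dotted line. Ribosomal proteins lie high at an RNA change of 0.04 and 0.07, and glycolysis lies far left at an RNA change of −1.08 and a footprint change of −0.06.

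Of 25 genes of oxidative stress defence 12 rose (48.0%, set beside 15.3% of all genes) and 2 fell, with a median of 0.49. The superoxide dismutase SOD1 had TE of 2.40 and 3.53 in ∆ntd and 1.04 and 1.03 in WT (1.53 ± 0.23), and the thioredoxin TRX1 had TE of 2.17 and 3.67 in ∆ntd and 1.05 and 1.12 in WT (1.42 ± 0.23). The falls were GSH1 and GSH2, which catalyze the steps of glutathione synthesis. GSH1 TE was 0.216 and 0.236 in ∆ntd and 0.495 and 0.532 in WT, a fall of 1.19 ± 0.12 (edgeR adjusted p = 3.17e-05). Among mitochondrial lists, respiratory chain genes had a median footprint change of 0.57 beside an RNA change of 0.46, so their median TE change was only 0.19, with 10 rises and 1 fall in 38, 6 and 0 without WT culture 1, and 17 and 10 without ∆ntd culture 1. CYT1, cytochrome c1, had TE of 2.54 and 2.29 in ∆ntd and 1.12 and 1.17 in WT (1.08 ± 0.14). The TCA cycle list had 10 rises and 2 falls in 18 with a median of 0.47, but 2 rises without WT culture 2. MDH1, malate dehydrogenase, had TE of 2.38 and 1.95 in ∆ntd and 1.01 and 1.10 in WT (1.04 ± 0.14). Trehalose and glycogen genes had 5 rises and 0 falls in 17, sterol synthesis 6 rises and 2 falls in 26, sphingolipid and long-chain fatty acid enzymes 4 rises and 2 falls in 22, and mitochondrial protein import 4 rises and 4 falls in 32. The shares of rises were 29.4%, 23.1%, 18.2% and 12.5%, set beside 15.3% of all genes, and the shares of falls in the last 3 lists were 7.69%, 9.09% and 12.5%, near the 10.1% of all genes. Without WT culture 1 the rises in the sterol, sphingolipid and import lists numbered 2, 1 and 2, and without WT culture 2 those in the trehalose list numbered 2.

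The genes that break down urea and other nitrogen sources had a median TE change of −0.29 over 19 members, with 1 rise and 2 falls (10.5%, set beside 10.1% of all genes). DUR1,2, the urea amidolyase, had TE of 0.289 and 0.424 in ∆ntd and 0.524 and 0.506 in WT. Its log2 change of −0.53 ± 0.18 had an edgeR adjusted p of 0.0449 and was not called with the compared groups alone, without either WT culture, or with the replicate number as a block (adjusted p = 0.051). The urea importer DUR3, listed with the permeases, had TE of 0.430 and 0.395 in ∆ntd and 0.728 and 0.609 in WT, and its change of −0.69 ± 0.17 was not called without WT culture 1. PUT1, proline oxidase, had RNA at 81.0 and 89.7 CPM in ∆ntd and 21.9 and 23.3 CPM in WT, and footprints at 58.8 and 54.0 CPM in ∆ntd and 31.4 and 36.9 CPM in WT. Both were higher in the mutant, the RNA by more, so TE fell by 1.17 ± 0.17 (edgeR adjusted p = 2.74e-04). CAR2, which acts in arginine breakdown, had footprints at 518 and 1414 CPM in ∆ntd and 391 and 370 CPM in WT, and RNA at 65.0 and 73.9 CPM in ∆ntd and 199 and 199 CPM in WT. CAR2 TE was 7.97 and 19.1 in ∆ntd and 1.97 and 1.86 in WT, a rise of 2.86 ± 0.45 (edgeR adjusted p = 4.80e-04).

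CAR2 is also an example of the rises whose size depended on the ∆ntd culture. Of the 12 largest rises 9 were called in all 3 fits, and in most of them culture 2 had the higher TE. COX19, needed for assembly of cytochrome oxidase, had TE of 3.21 and 8.20 in ∆ntd and 1.08 and 0.961 in WT (2.38 ± 0.42). FMP45, an integral membrane protein, had TE of 1.51 and 2.06 in ∆ntd and 0.415 and 0.299 in WT (2.24 ± 0.34). ANB1, the eIF5A isoform of low oxygen, had TE of 4.47 and 7.91 in ∆ntd and 1.34 and 1.22 in WT (2.26 ± 0.40). ARG82, an inositol polyphosphate kinase, had TE of 2.12 and 6.84 in ∆ntd and 0.570 and 0.725 in WT, a rise of 2.78 ± 0.66 that was not called without WT culture 1 (edgeR adjusted p = 0.08) or without WT culture 2 (0.052). WHI5, a repressor of G1 transcription, had footprints at 18.6 and 51.8 CPM in ∆ntd and 19.6 and 14.2 CPM in WT, so that ∆ntd culture 1 lay within WT. Its TE rise of 2.49 ± 0.67 was not called with the compared groups alone (adjusted p = 0.054) or without either WT culture (0.067 and 0.098). SDH3, a subunit of succinate dehydrogenase, had TE of 1.31 and 4.48 in ∆ntd and 0.720 and 0.693 in WT, and was not called with the compared groups alone (edgeR adjusted p = 0.075) or without either WT culture.

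With library totals in place of TMM, which lower the TE change of the typical gene, 16 of the 40 lists kept the sign of their median. Without ∆ntd culture 1, and likewise without ∆ntd culture 2, 36 of the 40 did. Set against the median of all genes in place of 0, 39 of the 40 lists stayed on their side under TMM, the size factors of DESeq2 and library totals. Of these lists, 32 also stayed there with each ∆ntd urea culture alone. Without urea fewer genes were called in the main fit, but not in the other 2 fits. In the main fit TE differed in 341 of 5251 genes (6.49%), with 168 higher in ∆ntd (3.2%) and 173 lower (3.29%). With the compared groups alone 699 were higher and 516 lower without urea, against 346 and 232 in urea. With a variance for each group the counts were 611 and 570 without urea, against 608 and 192 in urea. The urea and no-urea comparisons share no libraries. Of the genes called higher in urea, 85.6% also had a TE change above 0 without urea, set beside 49.5% of all genes. Of those called lower, 86.0% were below 0 without urea, set beside 50.5% of all genes. In the main fit 131 of the 805 genes called higher in urea were also called higher without urea. This is 16.3% of the urea list and 78.0% of the no-urea list, and 0 were called lower. Of the 528 called lower in urea, 103 were also called lower without urea, 19.5% and 59.5% of the lists, and 2 were called higher. These counts depend on the no-urea cultures, since 8 to 29 genes higher and 9 to 26 lower were called there when 1 of those cultures was left out, the lowest counts being without a culture numbered 2.

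The median TE change without urea was 0.51 for each of the 60S and 40S ribosomal protein lists, 0.49 for glycolysis and 0.64 for elongation factors. It was 0.10 for pheromone-induced genes, 0.08 for the PMT and MNN lists and 0.04 for the ALG enzymes. It was −0.02 for the KTR and KRE2 family and −0.16 for the GPI anchor enzymes, set beside −0.01 for all genes. The cell wall integrity list was at −0.19 without urea and −0.10 in urea. The difference of the strain effects, in urea less without urea, passed the test in 32 genes (0.609%), 14 higher (0.267%) and 18 lower (0.343%), with 958 at an unadjusted p under 0.05. GCN4 was among the 18, at −2.53 in urea and −1.14 without urea. FKS1 was at −1.15 in urea and −0.33 without urea, FIG2 at −4.86 and −0.34, and MNN1 at −0.95 and 0.09. Leaving out either WT urea culture left 0 calls in each direction, and leaving out ∆ntd urea culture 1 gave 900 higher and 614 lower, so these libraries do not settle how many genes differ. Of the 164 named genes the difference passed the test for 6, and its failure for the others does not show that urea had no part.

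**Figure D4:**
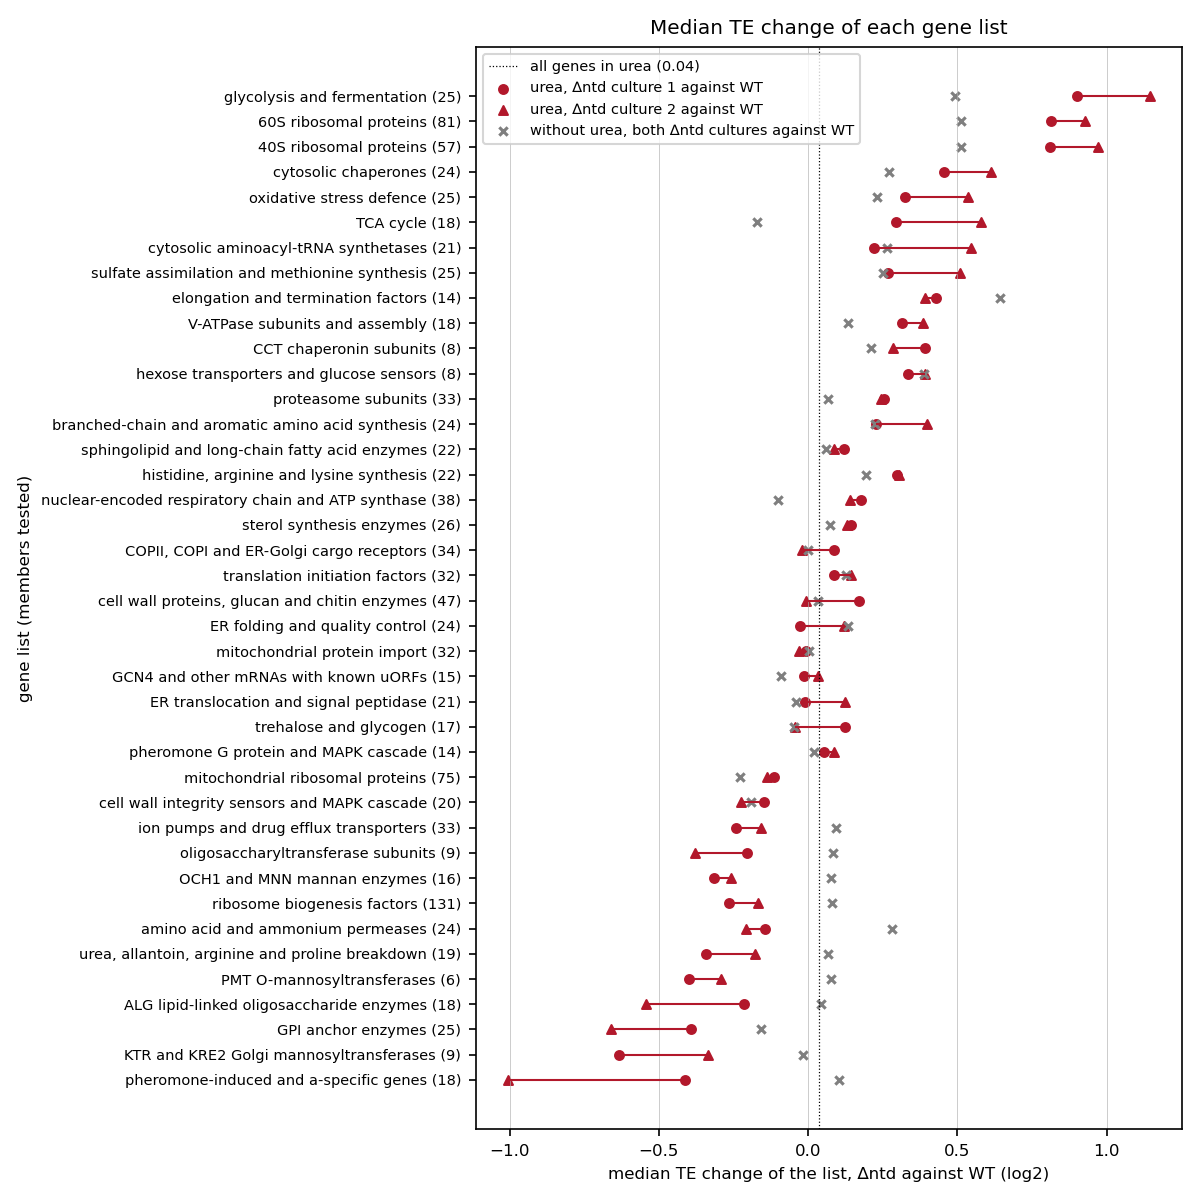
Median log2 TE change of each of the 40 gene lists, ∆ntd against WT, with the number of members tested in parentheses. Red circles and triangles stand for ∆ntd urea culture 1 and culture 2 against both WT urea cultures, gray crosses for the no-urea cultures, and the dotted line for all genes in urea at 0.04. Pheromone-induced genes lie at −0.41 and −1.01 in the red symbols and 0.10 in the gray cross, and 60S ribosomal proteins at 0.82 and 0.93 in the red symbols and 0.51 in the gray cross.

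The genes that fell in TE encode longer proteins than those that rose. The median protein length was 656 residues for the 528 genes that fell and 319 for the 805 that rose, set beside 420 for all genes tested. In the genes called in all 3 fits the medians were 741 and 266. Among proteins of 101 to 200 residues 28.3% rose and 1.47% fell, and among those of 1501 residues or more 2.52% rose and 42.9% fell. The median TE change ran from 0.36 in the class of 101 to 200 residues to −0.41 in that of 1501 or more, while the shortest class, up to 100 residues, was at 0.10. Over 5230 genes Spearman's rho between length and TE change was −0.29. It was −0.30 with ∆ntd culture 1 alone, −0.23 with culture 2 alone and −0.27 without the cytosolic ribosomal proteins, and it was −0.03 without urea. Genes are not independent replicates, so these are descriptions. The rho of footprint change with length was −0.32 and that of RNA change −0.05. Leaving out ∆ntd culture 1 gave a median of 562 residues for the falls, and leaving out WT culture 2 gave 279 for the rises.

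**Figure D5:**
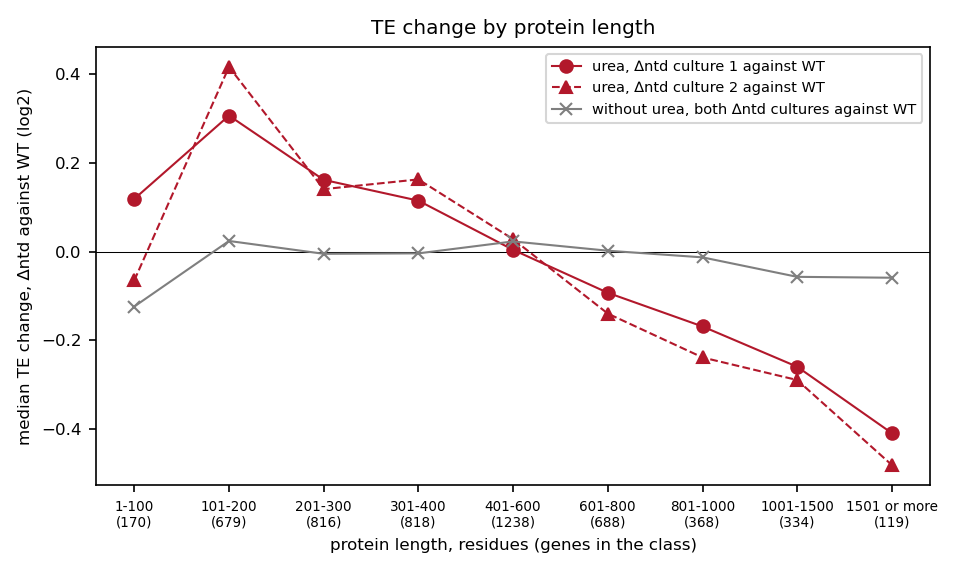
Median log2 TE change, ∆ntd against WT, in 9 classes of protein length, with the number of genes in each class in parentheses. Solid and dashed red lines are the ∆ntd urea cultures 1 and 2 and the gray line the cultures without urea. Both red lines run down from the class of 101 to 200 residues to −0.41 and −0.48 in the longest class, where the gray line is at −0.06.

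A hydrophobic stretch, taken as 19 residues with a mean hydropathy of at least 1.6 and often found in membrane proteins, was present in 43.6% of the genes that fell, 24.0% of those that rose and 29.2% of all genes tested. The share with lower TE was higher with such a stretch within each class of length. Over 600 residues it was 24.8% with the stretch and 15.9% without it, from 301 to 600 residues 11.9% and 6.96%, and up to 300 residues 4.47% and 3.37%. The median TE changes with and without the stretch were −0.20 and −0.15 over 600 residues, 0.01 and 0.11 from 301 to 600, and 0.15 and 0.28 up to 300. The parts of protein length and of hydrophobic stretches in the shifts of the gene lists were not tested.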

How the data were processed

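RNAseq and Riboseq libraries came from 8 cultures, 2 per strain and medium, each culture giving both libraries. The study describes them as biological replicates. By the study's methods and per the labels, the authors used cutadapt 1.1 to cut linkers, set aside reads of non-coding RNAs, aligned what was left to yeast transcripts with Bowtie (build sacCer3), and deposited a table of raw counts per gene (6692 genes, 378 without a count). The same table holds the authors' DESeq2 comparisons, as fold changes with their false discovery rates, and these columns were not used. Uniquely mapped reads were counted, so paralogs are uncertain. For each gene, windows of 28 bases of the coding sequence were searched in all other genes to give the shared percentage.

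Analyses of the counts used Python 3.11.15 (pandas 2.3.3, numpy 2.4.6, matplotlib 3.10.9) and R 4.3.3, in which DESeq2 1.42.0 and limma 3.58.1 served as alternatives to edgeR 4.0.16. Low genes were removed with filterByExpr, separately for the assays (5286 in Riboseq, 5486 in RNAseq, 5251 in both) and scaled by TMM. All 16 libraries entered 1 quasi-likelihood fit, with TE as the interaction of assay and strain. CPM is the count over the TMM-scaled total, TE in a culture is footprint CPM over RNA CPM, and a gene with at most 3 counts in each library of a group was taken to be at the floor. RefSeq annotation gave 5988 translated coding sequences.

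The members and the 40 gene lists (1140 genes) were chosen with earlier results of these data known. The 164 named genes are TIF3, GCN4 and ACT1, the 12 largest TE falls and 12 largest rises, and up to 4 members of each list with the largest change past the test. The 12 largest were past the test with separated groups. They had at least 10 reads in each urea RNAseq library and 10 footprints in each library of the higher group. Mating markers were counted separately and are among the 164 only where picked from a list. Other list members are named where a list held few calls and were picked after their values were seen. Alternatives covered the scaling, the filter, the tool, the samples fitted, the variance per group, blocks, thinning and leaving out each culture. The fit was tested on simulated data.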

Additional observations from a re-analysis of the deposited data

Results flagged for a closer look

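For 6 of the named genes the strain effect on TE in urea differed from that without urea (edgeR's quasi-likelihood interaction test, Benjamini-Hochberg adjustment over 5251 genes). The difference, in urea less without urea, was −4.52 on the log2 scale for FIG2 (adjusted p = 0.0285), −1.38 for GCN4 (0.0285), −1.28 for PUT1 (0.0285), −1.04 for MNN1 (0.0285), −0.83 for FKS1 (0.0462) and 0.82 for PGM2, a phosphoglucomutase (0.0285). No gene was called with the culture as a block (0 higher and 0 lower) or without either WT urea culture (0 and 0), and leaving out 1 culture grown without urea left 0 higher and 0 or 1 lower, where the comparison in edgeR with all cultures had 958 genes at an unadjusted p under 0.05. With a variance for each group in limma voom the adjusted p was 0.0719 for FIG2, 0.00464 for GCN4, 0.0118 for PUT1, 0.0137 for MNN1, 0.0114 for FKS1 and 0.0118 for PGM2. With the replicate block it was 0.0242 for FIG2, 0.065 for GCN4, PUT1 and MNN1, 0.101 for FKS1 and 0.0787 for PGM2. DESeq2 gave 1.33e-05 for GCN4, 0.00151 for PUT1, 0.000338 for MNN1, 0.000349 for FKS1 and 0.00262 for PGM2, and no adjusted value for FIG2.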

How the results depend on the processing

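Counts of calls are given as higher and lower in ∆ntd. Library totals gave 533 and 1348 for footprints, 215 and 2126 for TE in urea, 2760 and 519 for RNA, 82 and 491 for TE without urea, and 5 and 136 for the difference of strain effects. The median TE change kept its sign in 16 of the 40 lists, while 39 of the 40 stayed on their side of the median of all genes. Library totals reversed SRP54 (−0.15), HXT3 (−0.0702), CCT2 (−0.0589), CCT5 (−0.18) and CCT7 (−0.22). The compared groups alone gave 375 and 337 for footprints, 346 and 232 for TE in urea, and 699 and 516 without urea. A variance for each group gave 626 and 425 for footprints, 192 lower for TE in urea, 611 and 570 without urea, and 184 and 37 for the difference. DESeq2 gave 682 higher for RNA and 55 and 48 for the difference. Size factors of DESeq2 in edgeR gave 6 higher for the difference. Thinning gave 101 lower for TE without urea and 1 and 2 for the difference. The cause was not tested.

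With 1 culture left out, footprints ranged from 353 to 1551 higher and 348 to 1445 lower, TE in urea from 350 to 1287 and 205 to 1019, RNA from 853 to 1026 and 972 to 1110, TE without urea from 8 to 29 and 9 to 26, and the difference from 0 to 900 and 0 to 614. The low ends in urea lack a WT culture and the high ends lack ∆ntd culture 1, except for RNA. The median length of genes with TE called was 266.5 residues (higher) and 707 (lower) with the compared groups alone, 287.5 and 703.5 with a variance for each group, and 279 to 338 and 562 to 703.5 with 1 culture left out; these and the list counts under the alternatives were chosen after seeing the data.

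Replicate numbers did not pair the strains (correlation of deviations 0.01 in Riboseq and 0.04 in RNAseq). With the replicate block TE gave 720 and 477 calls in urea, 110 higher without urea, and 0 and 1 for the difference. A culture block gave 0 and 0 for the difference. Of the 164 named genes, 75 kept their call in all 14 settings, and FIG2, ANB1 and YHR033W in the 13 settings that gave them a value, since each has a library with under 10 counts; 54 lost it with the compared groups alone, 29 with a variance for each group, 46 with library totals, 56 without WT culture 1 and 63 without WT culture 2. The WT urea libraries are the shallowest in Riboseq and the ∆ntd urea libraries include the shallowest in RNAseq, and what depth does to the calls of low genes was tested only by thinning.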
